A study of Mus musculus with 6 samples.

Results

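Invasive bladder carcinoma was compared with normal urothelium across the genes measured on Affymetrix arrays whose probes lie toward the 3' ends of transcripts. The comparison used 4 of the 6 arrays of the study, 2 of invasive carcinoma and 2 of normal urothelium, chosen by their titles, and a further 2 arrays of carcinoma in situ were used to estimate the spread and as a reference level for named genes. The normal urothelium came from wild-type mice. Carcinoma in situ, a flat lesion within the epithelium, and invasive carcinoma came from mice labelled H-ras+/-, p53-/-, which the labels also call double transgene. All mice were FVB/N and 8 months old, and all regions were lifted by laser capture from frozen bladder sections stained with haematoxylin and eosin. The promoter that drives the transgene is not given in the sources used here, and the transgene and the deleted gene were not analysed here. Lesion and genotype changed together between the groups compared, so their parts in a difference cannot be told apart. The labels do not tie arrays to animals, so p-values measure only how far these arrays differ, and that spread may be technical in part.

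The urothelium is a layered lining that keeps urine out of the tissue beneath it. Its surface umbrella cells carry plaques of uroplakins, membrane proteins that stiffen the side facing the lumen, and are sealed to each other by tight junctions. Intermediate and basal cells lie below, and the basal cells, marked by keratins such as Krt5 and Krt14, rest on the basement membrane. In invasive carcinoma epithelial cells have crossed that membrane, so that tumour, fibroblasts, vessels and immune cells lie close together in a captured region.

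Values are log2 signals, on which a difference of 1 is a doubling, and each gene was represented by the probe set with the highest mean over the 6 arrays. Differences are given ± the standard error of the model, with n = 2 arrays per group, and an adjusted p is from limma with Benjamini-Hochberg adjustment over all 18193 genes, called under 0.05. By this rule 3652 genes differed (20.1% of those tested), of which 2295 were higher in invasive carcinoma (12.6%) and 1357 lower (7.46%). Counts within gene lists are to be read against these shares. The changes were large, with 862 genes over 4-fold higher and 298 over 4-fold lower, and 143 and 26 over 16-fold. Paired arrays of a group differed gene by gene with an SD of 0.69 log2 units in normal urothelium, 0.42 in invasive carcinoma and 0.22 in carcinoma in situ. The close in situ pair enters the shared estimate of the spread, and the count was 1832 (1241 higher and 591 lower) when only the 4 arrays compared were fitted. Leaving out 1 array at a time gave counts from 1637 (without invasive array 2) to 5699 (without normal array 2), with 2177 without invasive array 1 and 5389 without normal array 1. With each array centred on its median over genes, which moved the median difference of all genes from 0.00 to -0.27, the split was 1714 higher and 2449 lower. The Xist transcript of the inactive X chromosome read 6.85 and 13.37 in the normal arrays, 13.17 and 13.33 in carcinoma in situ and 10.28 and 6.43 in the invasive arrays. The Y-linked Kdm5d read 8.28 and 7.62, then 2.90 and 2.84, then 6.58 and 5.96 in that order. Both in situ arrays thus had high Xist and dim Kdm5d. In comparisons with carcinoma in situ, lesion and sex-linked signal differed together and cannot be told apart. Normal array 2 and invasive array 1 held signal of both transcripts. A fit without these 2 arrays leaves 1 array in each group compared. Its spread then comes only from the close in situ pair, so its count is not read as a result.

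Secreted proteases, chemokines and an antimicrobial protein stood among the 15 largest rises. Mmp13, a collagenase, read 3.28 and 3.44 in the normal arrays and 13.12 and 12.64 in the invasive arrays (9.52 ± 0.21). Reg3b, an antimicrobial lectin of epithelia, rose from 4.07 and 3.88 to 12.77 and 12.40, a difference of 8.61 ± 0.19 (adjusted p = 0.000108). The arrays of the groups were far apart for both genes, and in carcinoma in situ Reg3b read 4.86 and 4.84. Where a group is dim, as the normal arrays are for these genes, background limits the lower value and the difference may be understated. Among the 15 largest rises were also Mmp3 (8.41), the neutrophil-attracting chemokines Cxcl3 (7.65) and Cxcl5 (6.18), the metalloproteinase Mmp7 (7.46), the copper-carrying ferroxidase Cp (7.21), the chitinase-like Chil4 (7.16), the mast cell protease Mcpt2 (6.91), the transcription factor Onecut2 (6.88), the Yap1 target Ankrd1 (6.72), the cell cycle inhibitor locus Cdkn2a (6.29), the prostaglandin synthase Ptgs2 (6.22), the heparan sulfate sulfotransferase Hs6st2 (6.16) and the wound keratin Krt6a (6.13). Onecut2 read 4.36 and 3.71 in the normal arrays, 4.09 and 4.34 in carcinoma in situ and 11.35 and 10.48 in the invasive arrays. It was thus high only in the invasive arrays, and an order in time was not tested.

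The 15 largest falls were those of genes of varied function. Tmprss11a, a membrane serine protease, read 11.03 and 10.43 in the normal arrays and 3.58 and 3.79 in the invasive arrays, and fell by 7.04 ± 0.25 (132-fold, adjusted p = 0.000269). Ttr, a carrier of thyroid hormone and of retinol-binding protein, fell from 11.87 and 12.09 to 5.01 and 5.56, and its invasive level differed from that in carcinoma in situ (5.36 and 5.24) by -0.01 (adjusted p = 0.990). Between the lesions 4.18% of all genes were higher and 1.31% lower in invasive carcinoma (999 genes, but 89 and 50 without in situ array 1 and 2), and since this test uses the same invasive arrays it is no independent support for the first. Scube2, a secreted factor that helps Hedgehog proteins leave their source cell, read 11.45 and 11.64 in the normal arrays. It was lower in carcinoma in situ (7.37 and 7.41) and lowest in the invasive arrays (4.53 and 5.56). The others were the cytochrome P450 gene Cyp4f15 (-6.42), the organic cation exporter Slc47a1 (-6.33), Upk3a (-5.99), the serotonin receptor Htr4 (-5.84), the claudin Cldn8 (-5.68), the neurexin family member Cntnap2 (-5.55), the steroid dehydrogenase Hsd17b2 (-5.51), the ceramidase Acer2 (-5.42), the fatty acid elongase Elovl4 (-5.05), Fam25c (-4.83), the alcohol dehydrogenase Adh1 (-4.72) and the small nucleolar RNA host transcript Snhg14 (-4.54).

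All 5 uroplakins on the umbrella cell list fell, whereas its other members moved in part. Of 14 measured members of that list 8 fell and 1 rose, with a median difference of -2.19 beside 0.00 for all genes, and the same counts came from the 4 arrays alone. Fewer cells of a type and less RNA per cell cannot be told apart in such samples, here or in any result that follows. Upk2 read 12.54 and 11.66 in the normal arrays and 7.998 and 8.10 in the invasive arrays and fell by 4.05 ± 0.30 (16.5-fold, adjusted p = 0.00108). Upk1a, its partner in the uroplakin heterodimer, read 11.45 and 11.19 against 7.43 and 7.42 and fell by 3.89 ± 0.17 (adjusted p = 0.000419). Upk1b (-3.30) and Upk3b (-2.52) fell less and were still bright in the invasive arrays, at 10.50 and 11.19 for Upk1b and 10.13 and 9.70 for Upk3b. The 5 uroplakins thus fell by unequal amounts, from -2.52 for Upk3b to -5.99 for Upk3a, and in none did the normal and invasive arrays overlap. Over all genes 27.1% lay wholly lower and 29.7% wholly higher in the invasive arrays. Carcinoma in situ lay between them for all 5, as the plot of these genes by array shows. The invasive level was also below that of carcinoma in situ for Upk1a (-1.81, adjusted p = 0.00512), Upk1b (-2.41, adjusted p = 0.0116) and Upk3a (-3.77, adjusted p = 0.0320).

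Genes that carry uroplakin plaques to and from the surface moved in part with them. Snx31, a sorting nexin of the uroplakin degradation route, fell from 12.54 and 10.42 to 7.03 and 7.72 (-4.10, adjusted p = 0.0124). Sytl2, a Rab27 effector (-3.43), and Rab27b, a Rab of the fusiform vesicles (-1.69), fell as well. Mall, a raft protein related to Mal, was the member that rose, from 6.96 and 6.03 to 9.99 and 8.78 (2.89, adjusted p = 0.0122). Mal (-1.01), Vamp8 (0.23), Rab11a (-0.13), Myo5b (-1.66) and the umbrella cell keratin Krt20 (-1.86) did not pass the test. Krt20 differed from the uroplakins in its course: it read 11.55 and 10.14 in the normal arrays, 5.74 and 5.92 in carcinoma in situ and 9.46 and 8.51 in the invasive arrays, which were above carcinoma in situ (3.15, adjusted p = 0.0296).

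**Figure D1:**
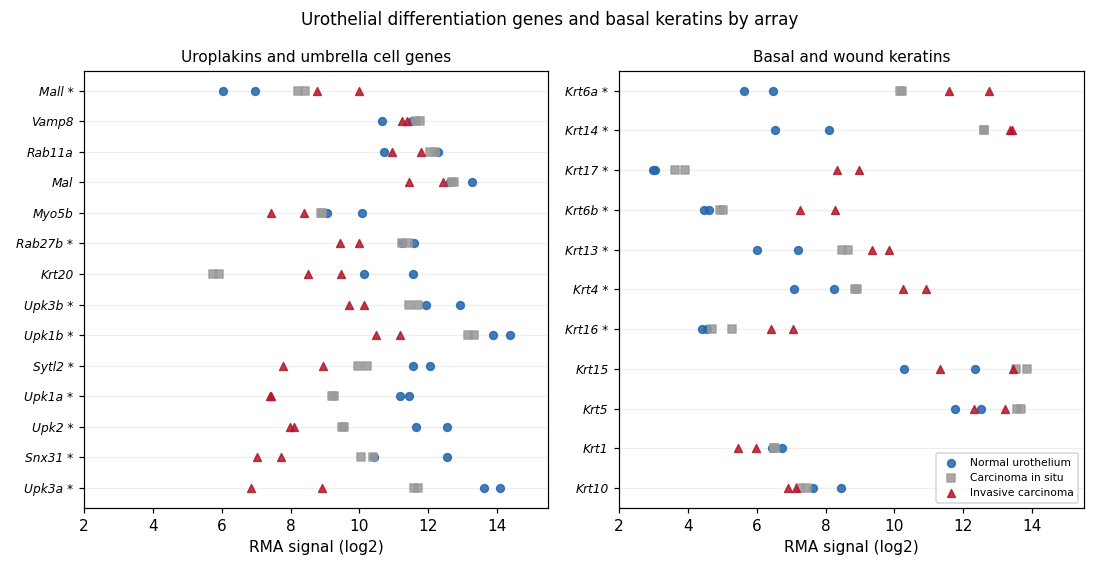
Log2 RMA signal (horizontal) of each measured umbrella cell gene and each basal or wound keratin, with 2 points per group, and an asterisk beside genes past the threshold between invasive carcinoma and normal urothelium. The 5 uroplakins run from normal urothelium on the right to invasive carcinoma on the left, and Krt14, Krt6a and Krt17 run the other way.

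Transcription factors of the urothelial programme did not move together. Of 21 measured, 4 rose and 4 fell (3 and 2 with the 4 arrays alone). Among the falls were Gata3, a luminal regulator, from 11.37 and 11.16 to 9.93 and 9.10 (-1.75, adjusted p = 0.0129), Tbx2 (-2.28) and the grainyhead factors Grhl3 (-2.96) and Grhl1 (-1.91). Klf4 (1.94), Tfap2a (1.90), Irf1 (1.69) and Foxa2 (0.81) rose. The remaining regulators, among them Pparg (-1.74, adjusted p = 0.132), Foxa1 (-1.15, adjusted p = 0.145), Trp63 (0.20, adjusted p = 0.735, but -2.10 by its probe set of highest variance) and Elf3 (1.25, adjusted p = 0.0548), did not pass the test.

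Markers of epithelium were bright in the arrays of both groups. None of the 5 simple keratins passed the test, and Krt8, a keratin of all simple and transitional epithelia, read 14.22 and 13.73 in the normal arrays and 14.07 and 13.89 in the invasive arrays (0.00 ± 0.21, adjusted p = 0.996). The cadherin of epithelia, Cdh1, read 12.59 and 12.69 against 12.82 and 12.06 (-0.20 ± 0.28), and the adhesion molecule Epcam 12.81 and 11.97 against 13.14 and 12.01 (0.18 ± 0.46). Krt19 (0.40 ± 0.51) and Krt7 (0.21 ± 0.32) did not pass either, with errors too wide to show equal levels.

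Keratins of basal and wounded epithelium rose in the same arrays. Of 11 measured, 7 were higher and 0 lower, with a median of 2.92, and all 7 were called with the 4 arrays alone. Krt17, a keratin of wound edges and of basal-like carcinomas, read 3.03 and 2.98 in the normal arrays, 3.91 and 3.61 in carcinoma in situ and 8.97 and 8.32 in the invasive arrays. It rose by 5.64 ± 0.26 from a dim level (adjusted p = 0.000438) and was also higher than in carcinoma in situ (4.89, adjusted p = 0.00138). Krt14, the keratin of basal cells with regenerative capacity, was also high in carcinoma in situ. It read 8.11 and 6.54, then 12.61 and 12.60, then 13.44 and 13.35 in the same order. The invasive arrays differed by 6.07 from normal (adjusted p = 0.00137) and by 0.79 from carcinoma in situ (adjusted p = 0.497). Krt6b (3.22) and Krt16 (2.26), partners of Krt6a and Krt17 at wound edges, and the mucosal pair Krt13 (3.001) and Krt4 (2.92) also rose. Krt5 (0.62 ± 0.38) and Krt15 (1.07 ± 0.90), which are basal keratins as well, did not pass the test, nor did Krt1 (-0.87) and Krt10 (-1.02) of the epidermis. Of 18 genes of the cornified envelope 2 rose (Tgm1, 1.88, and Calml3, 1.13) and 1 fell (Rptn, -1.74), against 2 and 0 with the 4 arrays alone. These shares, 11.1% higher and 5.56% lower, lie near the 12.6% and 7.46% over all genes and are not read as a result about the family. Among 10 genes associated with stem cells 6 rose, led by Prom1, from 5.32 and 5.47 to 11.35 and 10.59 (5.57, adjusted p = 0.000518), with Sox2 (2.64), Hmga2 (2.43), Sox9 (2.32), Sox4 (1.93) and Cd24a (1.57). Nanog (-0.06) and Pou5f1 (-0.40) stood at dim values in all arrays and did not pass.

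Barrier genes changed member by member. Of 18 tight junction genes 4 fell and 1 rose (1 and 1 with the 4 arrays alone). Cldn8, a claudin of tight urinary epithelia, read 12.77 and 11.47 in the normal arrays and 6.56 and 6.32 in the invasive arrays (51.4-fold lower, adjusted p = 0.00108), and Cldn3 went the other way, from 6.19 and 5.999 to 10.58 and 9.86 (4.12, adjusted p = 0.000913). Cldn23 (-2.28), Marveld3 (-2.05) and tricellulin, Marveld2 (-1.51), fell, whereas Cldn4 (-0.19 ± 0.39), Cldn7 (0.29 ± 0.30) and Tjp1 (-0.37 ± 0.45) did not pass. Of 21 desmosome and adhesion genes 5 fell and 2 rose (2 and 2 with the 4 arrays alone). The falls included the protease Prss8 (-2.43), its inhibitor Spint1 (-2.05), the epithelial splicing factor Esrp2 (-1.79), the cornified envelope protein Evpl (-1.60) and the desmoglein Dsg2 (-1.41), and the rises were the plakophilins Pkp1 (2.11) and Pkp2 (1.75).

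Transport genes changed in both directions. Of 19 measured, 4 rose and 3 fell (4 and 2 with the 4 arrays alone). Scnn1g (-4.004, adjusted p = 0.000619) and Scnn1b (-2.98, adjusted p = 0.0127), subunits of the epithelial sodium channel that Prss8 activates, fell, and the urea transporter Slc14a1 fell from 12.69 and 10.88 to 9.23 and 8.27 (-3.03, adjusted p = 0.0238). Scnn1a, another subunit, did not pass (0.47). The water channel Aqp5 rose from 6.06 and 6.19 to 10.34 and 10.70 (4.40, adjusted p = 0.000432), with no rise in carcinoma in situ (5.66 and 5.85). Aqp4 (3.94), Aqp1 (3.67), which endothelium also expresses, and the chloride channel Cftr (3.14) rose too, while Aqp3 (-0.80) did not pass.

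Enzymes that handle alcohols, retinoids and foreign compounds changed in both directions. In the retinoid and alcohol list 7 of 19 rose and 4 fell (4 and 2 with the 4 arrays alone). Adh1, which oxidises retinol and ethanol, read 13.66 and 13.27 in the normal arrays and 7.89 and 9.60 in the invasive arrays. The aldehyde dehydrogenase Aldh1a7 read 11.28 and 10.87 against 8.80 and 7.41 (-2.97, adjusted p = 0.00944). Aldh1a3, which makes retinoic acid, moved the other way, from 4.04 and 3.55 to 10.13 and 8.10 (5.32, adjusted p = 0.00445), with Aldh1a2 (2.62), the retinoic acid binding protein Crabp1 (2.43), the retinol receptor Stra6 (1.53) and the retinol dehydrogenase Rdh10 (1.57), while the related Rdh11 fell (-1.62). In the xenobiotic and glutathione list 11 of 32 fell and 4 rose (7 and 2 with the 4 arrays alone). The falls were led by the flavin monooxygenase Fmo5 (-3.72) and by the glutathione transferases Gstm1 (-3.42), Gstm4 (-3.34), Gstm3 (-2.60) and Gstt3 (-2.34), with the aryl hydrocarbon target Cyp1a1 (-2.51). Gstm1 read 14.36 and 13.81 in the normal arrays, 13.63 and 13.86 in carcinoma in situ and 10.76 and 10.57 in the invasive arrays, so its values parted only between the lesions (-3.08, adjusted p = 0.00301). Enzymes of the oxidative stress response, Hmox1 (2.01) and Txnrd1 (1.93), were among the rises. Members of the Gstm family resemble each other closely, and probes may be shared between them.

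Part of the genes of cholesterol and fatty acid metabolism fell, part of those of glycolysis rose, and few of the respiratory chain passed. Of 21 cholesterol genes 7 fell and 1 rose (4 and 1 with the 4 arrays alone), with a median of -0.93, led by Lss (-2.19), the regulator Srebf1 (-1.64), Dhcr7 (-1.55) and Hsd17b7 (-1.52), against the sterol carrier Stard4 (2.31). Of 25 fatty acid genes 7 fell and 0 rose (4 and 0 with the 4 arrays alone). Elovl6, an elongase, fell from 12.25 and 11.02 to 8.69 and 8.31 (-3.14, adjusted p = 0.00592) and so did the peroxisomal enzyme Ehhadh (-2.13), the mitochondrial oxidation enzymes Acadl (-1.36) and Cpt1a (-0.98) and the elongase Elovl1 (-1.21). The synthesis enzymes Fasn (0.06), Acly (0.03) and Scd1 (0.73) did not pass. Of 24 genes of glycolysis and the hypoxia response 11 rose and 0 fell (6 and 0 with the 4 arrays alone), among them Slc2a3 (2.93), Pgk1 (2.36), Hk2 (2.30), Tpi1 (2.15), Pfkl (1.81) and the hypoxia-induced Egln3 (2.07), Bnip3 (1.81) and Car9 (1.37). The glucose carrier Slc2a3 read 6.16 and 6.34 in carcinoma in situ and 9.24 and 8.93 in the invasive arrays (2.84, adjusted p = 0.00196). Slc2a1 did not pass against normal (-0.35 ± 0.25). Of 24 respiratory chain genes 1 rose (Sdhc, 0.69, not called with the 4 arrays alone) and 0 fell, below the background shares. Among 15 ribosomal proteins 1 rose (Rpl8, 0.83, not called with the 4 arrays alone) and 0 fell, with a median of 0.03.

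**Figure D2:**
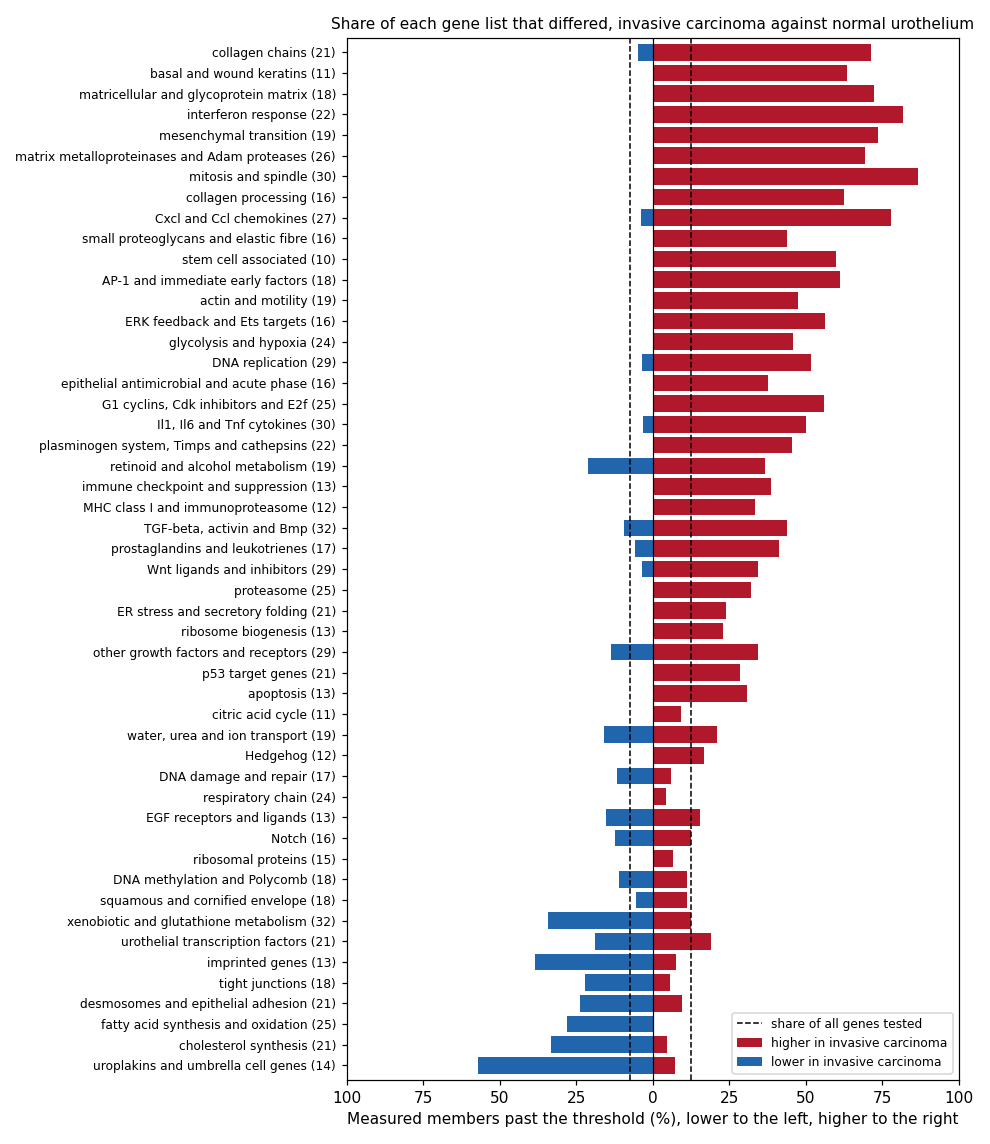
Share of measured members past the threshold (horizontal, %), lower in invasive carcinoma to the left and higher to the right, for lists other than cell type markers with at least 10 measured members (number in parentheses), ordered by median difference. Dashed lines mark the shares of all genes tested, 7.46% lower and 12.6% higher. Mitosis, interferon and chemokine lists reach furthest right, and the umbrella cell list furthest left.

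Division genes rose nearly throughout. Of 30 mitosis and spindle genes 26 rose and 0 fell, with a median of 2.44, and 22 rose with the 4 arrays alone. Birc5, survivin of the chromosomal passenger complex, read 3.53 and 4.36 in the normal arrays and 8.44 and 8.61 in the invasive arrays (4.58 ± 0.29, 23.9-fold, adjusted p = 0.000767). Mki67, a protein of dividing cells, read 5.74 and 6.10 against 10.12 and 10.02 (4.16), and Cdc20, an activator of the anaphase promoting complex, 6.59 and 6.22 against 10.08 and 10.35 (3.81). Carcinoma in situ lay nearer the invasive values, at 7.94 and 7.84 for Birc5 and 9.43 and 9.44 for Mki67. In the whole list only the cytokinesis gene Ect2 (0.95, adjusted p = 0.0326) and separase, Espl1 (0.84, adjusted p = 0.0380), were higher in invasive carcinoma than in carcinoma in situ. Tpx2 (-0.18, but 2.15 by its probe set of highest variance), Kif2c (0.03), Foxm1 (0.03) and Kif23 (-0.42) did not pass. Of 29 replication genes 15 rose, led by Rrm2 (3.82), Ung (2.52), Mcm3 (1.86) and Mcm5 (1.73), and 1 fell (Tyms, -1.14), against 7 and 0 with the 4 arrays alone. Of 17 repair genes 1 rose (Rad54l, 1.10) and 2 fell (Atr, -1.38, and Fancd2, -0.85), against 1 and 0. The repair shares were 5.88% higher and 11.8% lower, beside 12.6% and 7.46% over all genes.

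Promoters of the mitosis list are shown because its members moved together and share letters known from cell cycle promoters. The CCAAT box binds NF-Y and the letters TTTGAA are the core of the cell cycle homology region that binds the DREAM complex. RefSeq promoter windows of assembly GRCm38.p6, each spanning a transcription start, were found for 25 of the 30 measured members. CCAAT, on either strand, was held by 19 of them (76.0%) against 41.1% of all genes with a window, and TTTGAA, on either strand, by 19 (76.0%) against 20.2%. A gene counted as holding the letters when any of its windows did. The 150 bases before the start are printed for Cdc20 (chr4:118437344-118437493, minus strand), Cdk1 (chr10:69352913-69353062, minus strand) and Ube2c (chr2:164769779-164769928, plus strand), 5' to 3' on the gene's strand, with both motifs in capitals, where ATTGG and TTCAAA are the same motifs on the other strand.
Cdc20: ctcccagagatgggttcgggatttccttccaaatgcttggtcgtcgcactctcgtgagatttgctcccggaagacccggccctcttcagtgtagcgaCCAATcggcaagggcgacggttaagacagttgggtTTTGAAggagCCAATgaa
Cdk1: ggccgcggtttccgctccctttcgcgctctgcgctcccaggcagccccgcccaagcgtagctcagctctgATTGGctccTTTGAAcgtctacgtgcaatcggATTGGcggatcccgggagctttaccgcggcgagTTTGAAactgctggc
Ube2c: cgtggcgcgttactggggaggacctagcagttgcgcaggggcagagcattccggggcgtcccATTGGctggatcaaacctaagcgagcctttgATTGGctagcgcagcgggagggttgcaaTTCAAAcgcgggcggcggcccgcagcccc
Cdk1, the mitotic kinase, rose by 3.50 and Ube2c, the ubiquitin-conjugating enzyme of the anaphase promoting complex, by 3.66. A match of letters is a description and does not show that a factor binds there.

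Regulators of the G1 phase rose on both sides, cyclins and inhibitors alike. Of 25 measured, 14 rose and 0 fell (10 and 0 with the 4 arrays alone). Cdkn2a, the locus of p16Ink4a and p19Arf, read 4.41 and 5.99 in the normal arrays, 9.12 and 8.89 in carcinoma in situ and 11.19 and 11.79 in the invasive arrays (6.29 ± 0.53 against normal, 78.2-fold, adjusted p = 0.00157). The inhibitor Cdkn2c (2.51 against normal) read 7.26 and 7.35 in carcinoma in situ and 8.89 and 8.91 in the invasive arrays. The lesions differed by 1.60 (adjusted p = 0.00599). E2f7 (2.78), Ccnd1 (2.58), E2f8 (1.92), Ccnd3 (1.82), Ccne2 (1.51) and Cdkn2b (1.39) also rose against normal. Myc did not pass (1.31 ± 0.42). Of 21 p53 target genes 6 rose and 0 fell (2 and 0 with the 4 arrays alone), among them Ddit4 (2.98), Plk2 (2.13), Phlda3 (1.78), the death receptor Fas (1.04) and Cdkn1a (0.88), while Mdm2 (0.12) and Ccng1 (-0.04) did not pass.

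Feedback genes of the ERK pathway and AP-1 factors rose in part. Of 16 ERK feedback genes 9 rose and 0 fell (4 and 0 with the 4 arrays alone). The ERK phosphatase Dusp6 read 8.15 and 6.84 in the normal arrays and 11.25 and 10.79 in the invasive arrays (3.52, adjusted p = 0.00521), with 11.49 and 11.74 in carcinoma in situ. Spred1 (2.09), Errfi1 (1.85), Ier3 (1.70), Spry2 (1.51), Spred3 (1.49) and Dusp5 (1.45), which restrain receptor and Ras signalling or answer to it, rose as well, and no member of this list was higher in invasive carcinoma than in carcinoma in situ. Of 18 AP-1 and immediate early factors 11 rose and 0 fell (9 and 0 with the 4 arrays alone). Egr1 rose from 7.34 and 7.59 to 11.27 and 11.91 (4.12, adjusted p = 0.000741), Jun from 6.45 and 6.69 to 10.67 and 10.005 (3.77, adjusted p = 0.000997), Jund by 2.60, Fosl1 by 2.27 and Atf3 by 2.06. Egr2 (2.84), Maff (1.62) and Klf2 (2.56) were higher than in carcinoma in situ, while Fos (-0.76 ± 0.33) did not pass against normal. Of 13 Egf family genes 2 rose, Hbegf (1.76) and Epgn (1.43), and 2 fell, Erbb3 (-1.55) and Egf (-1.30). These shares are 15.4% each way, beside 12.6% higher and 7.46% lower over all genes. With the 4 arrays alone 1 rose and 1 fell.

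Secreted growth factors that act on stroma and vessels rose in part. Among 29 other growth factor genes 10 rose and 4 fell (8 and 3 with the 4 arrays alone). Igfbp4, a binding protein of insulin-like growth factors, read 8.10 and 7.42 in the normal arrays, 8.55 and 8.31 in carcinoma in situ and 13.19 and 13.45 in the invasive arrays (5.56, adjusted p = 0.000492). Vegfc, the lymphatic growth factor, read 4.63 and 4.89, then 6.57 and 6.11, then 9.65 and 10.25 in that order (5.19, adjusted p = 0.000607). Igf1 (4.81), Pdgfc (4.19), Axl (3.49), Pdgfb (3.48), Igf2 (3.45) and Kitl (3.41), the ligand of the mast cell receptor Kit, rose with them, and Igfbp2 (-3.29), Fgf1 (-2.85), Tyro3 (-2.11) and Fgfr3 (-1.37) fell. In the TGF-beta, activin and Bmp list 14 of 32 rose and 3 fell (12 and 1 with the 4 arrays alone). The Bmp antagonist Grem1 read 4.82 and 4.86 in the normal arrays and 9.54 and 9.52 in the invasive arrays (4.69, adjusted p = 0.000210). Fstl1 (4.50), Ltbp2 (4.45), the activin subunit Inhba (3.42), its antagonist Fst (3.42) Tgfb3 (2.78) and the Bmp target Id3 (2.68) also rose, while the ligands Bmp7 (-3.23) and Bmp2 (-2.01) fell. Igf1, Grem1 and Fstl1 are also products of fibroblasts, of whose 12 markers 7 rose in the same arrays.

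Ligands and secreted inhibitors of the Wnt pathway rose in part. Of 29 measured, 10 rose and 1 fell (7 and 1 with the 4 arrays alone). Sfrp2 rose from 5.63 and 5.37 to 10.30 and 10.95 (5.12, adjusted p = 0.000619), with the inhibitors Dkk2 (4.42) and Wif1 (3.75), the ligands Wnt7a (2.91), Wnt10a (2.25) and Wnt9a (2.07), and the pathway targets Lgr5 (2.12) and Axin2 (1.14). Wnt5a, a ligand that signals without beta-catenin, fell from 11.99 and 12.59 to 9.84 and 10.01 (-2.37, adjusted p = 0.00417). In the Hedgehog list 2 of 12 rose, the co-receptor Gas1 (2.24) and Gli3 (1.75), and the ligand Shh, secreted by basal urothelium, did not pass (-1.79 ± 0.52, adjusted p = 0.0659). In the Notch list 2 of 16 rose, Notch4 of endothelium (2.23) and Mfng (0.99), against 1 with the 4 arrays alone. Another 2 fell, Notch1 (-1.57) and its ligand Jag2 (-0.92), also against 1. Over all genes 12.6% were higher and 7.46% lower. The Hedgehog (16.7% and 0.0%) and Notch (12.5% and 12.5%) shares lie near these and are not read as results about the families.

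Proteases that cut the extracellular matrix rose over a wide range. Of 26 measured metalloproteinase, Adam and Adamts genes 18 rose and 0 fell, with a median of 2.45, and 15 rose with the 4 arrays alone. Mmp7, matrilysin, a protease made by epithelial cells, read 6.77 and 5.75 in the normal arrays, 9.88 and 9.91 in carcinoma in situ and 13.78 and 13.65 in the invasive arrays (176-fold over normal, adjusted p = 0.000438). Mmp3, stromelysin 1, showed no such step in carcinoma in situ, reading 4.99 and 4.91, then 4.55 and 4.68, then 13.30 and 13.41 in the same order. The gelatinase Mmp2, which stromal cells make, read 7.58 and 6.70, then 7.38 and 7.16, then 11.86 and 12.93 (5.25, adjusted p = 0.00158). The groups did not overlap for any of these, but Mmp7 and Mmp3 were chosen among genes without overlap. Over all genes 29.7% lay wholly higher in the invasive arrays. Adamts1 (4.19), Mmp12 (4.14), Mmp10 (4.11) and Adamts12 (3.36) were next in size, and the membrane-bound Mmp14 rose by 2.53. Mmp8 (0.34 ± 0.21) and Adam17 (-0.94 ± 0.28) did not pass.

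**Figure D3:**
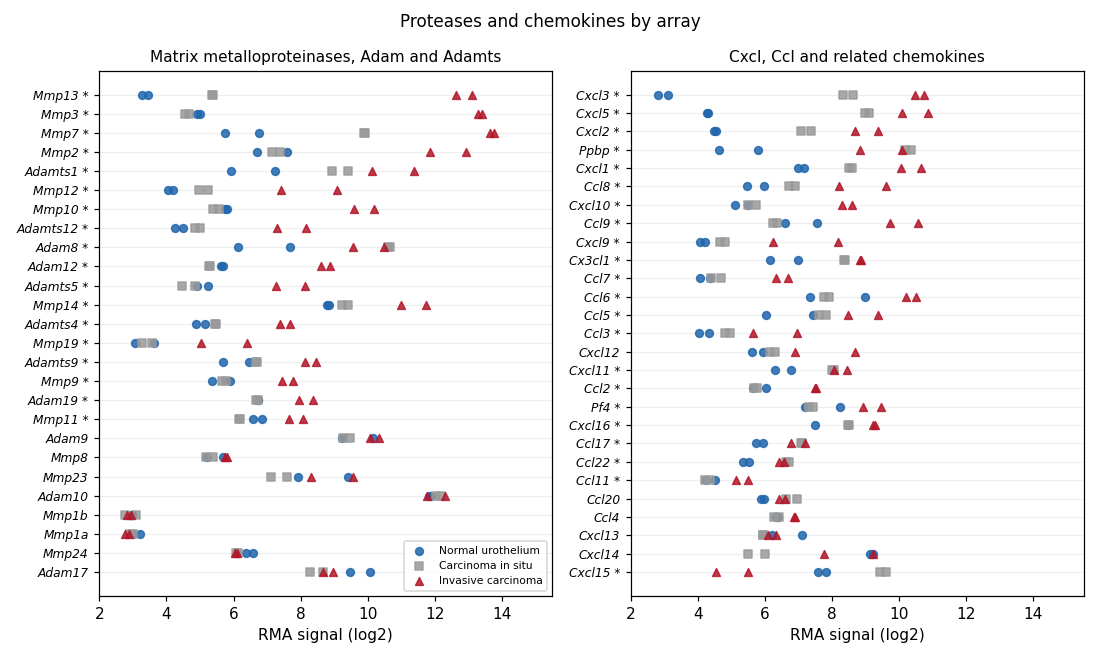
Log2 RMA signal (horizontal) of each measured metalloproteinase, Adam or Adamts gene and each chemokine gene, 2 points per group, ordered by the difference between invasive carcinoma and normal urothelium, with an asterisk beside genes past the threshold. Mmp13, Mmp3 and Mmp7 lie above 12 in both invasive arrays and below 7 in both normal arrays.

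The promoters of the metalloproteinases are shown because AP-1 has a well known site in them. Part of the AP-1 genes rose, Jun and Jund among them, but of the Fos genes measured only Fosl1. RefSeq windows were found for 19 of the 26 measured members of the list. The AP-1 letters TGANTCA, which read the same on both strands, were held by 8 of them (42.1%) against 8.97% of all genes with a window. All holders but Adam19 (1.43) are related neighbours in the chromosome 9 cluster, so the share rests mainly on a single gene family. The 150 bases before the start are printed with the match in capitals for Mmp13 (chr9:7272364-7272513, plus strand), Mmp3 (chr9:7445672-7445821, plus strand), Mmp7 (chr9:7691940-7692089, plus strand), Mmp10 (chr9:7502192-7502341, plus strand) and, for contrast, Mmp1a (chr9:7463991-7464140, plus strand), which holds the same letters and was not raised.
Mmp13: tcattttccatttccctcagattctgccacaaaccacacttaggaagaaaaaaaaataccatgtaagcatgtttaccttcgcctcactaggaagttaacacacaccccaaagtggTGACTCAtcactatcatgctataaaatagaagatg
Mmp3: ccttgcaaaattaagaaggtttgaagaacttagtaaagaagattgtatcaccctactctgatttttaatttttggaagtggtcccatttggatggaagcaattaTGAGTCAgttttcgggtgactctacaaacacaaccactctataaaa
Mmp7: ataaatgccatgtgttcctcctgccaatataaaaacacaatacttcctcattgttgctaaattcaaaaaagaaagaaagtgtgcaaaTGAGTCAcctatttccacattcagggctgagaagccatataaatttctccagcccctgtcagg
Mmp10: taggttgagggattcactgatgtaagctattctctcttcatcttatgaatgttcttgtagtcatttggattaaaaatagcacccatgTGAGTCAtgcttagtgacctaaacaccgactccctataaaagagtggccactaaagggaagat
Mmp1a: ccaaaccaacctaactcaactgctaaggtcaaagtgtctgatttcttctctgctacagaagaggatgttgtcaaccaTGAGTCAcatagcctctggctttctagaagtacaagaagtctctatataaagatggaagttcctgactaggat
The first base of the match lay 35 bases before the start in Mmp13, 46 in Mmp3, 63 in Mmp7, 63 in Mmp10 and 73 in Mmp1a. Mmp1a (-0.28 ± 0.17, at 2.76 and 2.90 in the invasive arrays) and Mmp1b (-0.09 ± 0.18), which also holds the letters, did not pass and stood at dim values in all 6 arrays.

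Genes of other function beside the metalloproteinase cluster of chromosome 9 rose with it. This run was noticed after its values were seen, and its ends, Dync2h1 and Arhgap42, were set by them, so its counts are a description. Of the 21 genes measured from Dync2h1 to Arhgap42, in RefSeq order, 13 were higher than normal and 0 lower, with a median of 3.13. Among the 16 nearest measured genes outside, 8 on each side, 3 were higher and 3 lower, with a median of 0.03. Yap1, the Hippo pathway coactivator, read 10.69 and 10.997 in the normal arrays, 11.42 and 11.61 in carcinoma in situ and 13.96 and 14.14 in the invasive arrays (3.21, 9.26-fold, adjusted p = 0.000685). Birc2, an inhibitor of apoptosis, read 9.37 and 9.70, then 8.74 and 8.93, then 13.08 and 13.54 (3.78, adjusted p = 0.000694), and its neighbour and relative Birc3 rose by 3.13. Both invasive arrays lay over 2 log2 units above the other 4 arrays for Birc2, Birc3 and Yap1. Dcun1d5, a neddylation factor, read 9.17 and 7.34 in the normal arrays against 12.98 and 13.24 in the invasive arrays. Arhgap42, at the end of the run, read 9.01 and 9.45 against 12.70 and 13.21, and Cfap300, a cilium gene, 5.66 and 5.64 against 9.98 and 10.59. The members that did not pass included Mmp20 (0.55) and Tmem123 (0.64), and next to the run Ddi1 (0.27) and Cntn5 (-0.01) did not pass either. Ddi1 (4.36 and 4.66 in the invasive arrays) and Cntn5 (3.50 and 3.35) were dim in all arrays, so they do not show where the run ends. The number of gene copies in these cells was not tested.

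**Figure D4:**
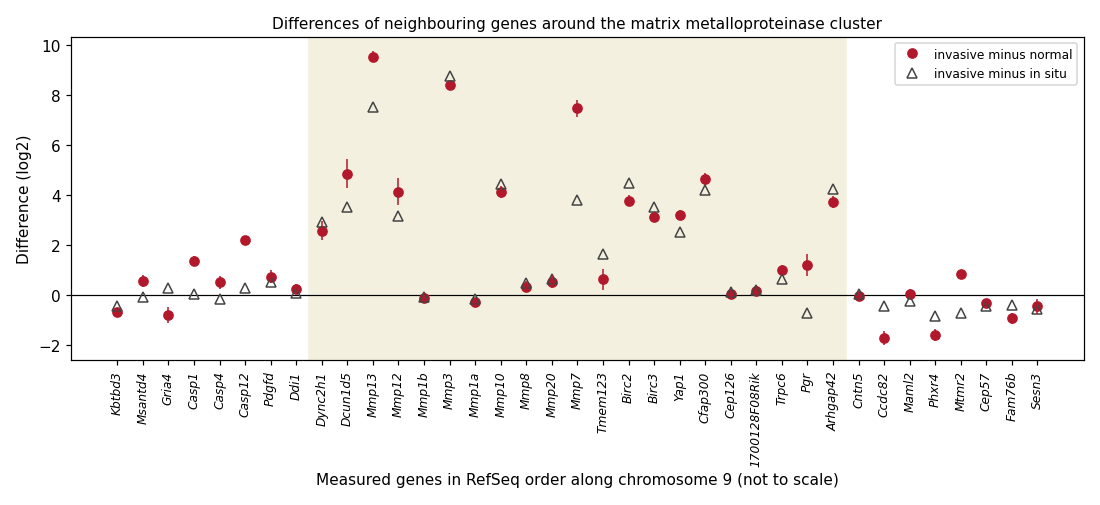
Difference in log2 signal (vertical) for measured genes in their order along chromosome 9, invasive carcinoma minus normal urothelium (filled circles, bars are standard errors) and minus carcinoma in situ (open triangles), with the run shaded. The run begins at Dync2h1, with Ddi1 just outside at 0.27, and ends at Arhgap42, with Cntn5 just outside at -0.01. Ddi1 and Cntn5 were dim in all arrays and do not mark sharp borders.

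Inhibitors and partners of the proteases rose as well. In the list of the plasminogen system, Timps and cathepsins 10 of 22 rose and 0 fell (8 and 0 with the 4 arrays alone). Timp1, an inhibitor of metalloproteinases, rose from 6.81 and 6.45 to 11.01 and 11.93 (4.84, adjusted p = 0.000915), and Timp3 (3.23) rose with it. Serpinf1 (3.97), the cathepsins Ctss (3.70), Ctsz (2.68), Ctsk (2.32) and Ctsl (2.27) and the plasminogen receptor subunit S100a10 (2.71) were also raised. Urokinase itself, Plau (0.10 ± 0.46), did not pass.

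Genes that mark mesenchymal cells rose. Of 19 genes used to mark a mesenchymal transition 14 rose and 0 fell (8 and 0 with the 4 arrays alone). Cdh11, a cadherin of mesenchymal cells, read 5.10 and 4.88 in the normal arrays and 8.40 and 9.76 in the invasive arrays (4.09, adjusted p = 0.00301). The transcription factors Prrx1 (3.88), Zeb2 (3.87), Twist1 (3.30) and Zeb1 (3.23) rose, as did Fn1 (3.48) and S100a4 (3.12), and Snai1 did not pass (0.07 ± 0.18). Twist1 read 4.58 and 4.49 in the normal arrays, 4.36 and 4.46 in carcinoma in situ and 7.50 and 8.18 in the invasive arrays. Of 19 actin and motility genes 9 rose, led by Msn, a linker of actin to the membrane (4.23), the GTPase Rhoc (4.13) and the crosslinker Actn1 (3.32), and 0 fell (5 and 0 with the 4 arrays alone).

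Collagens, their processing enzymes and matrix glycoproteins rose in large part. Of 21 collagen chains 15 rose and 1 fell (Col18a1, -0.63), with a median of 3.46, and 13 rose with the 4 arrays alone and 0 fell. Col5a2, a chain that shapes thin collagen fibrils, read 7.48 and 6.77 in the normal arrays, 7.05 and 7.06 in carcinoma in situ and 11.80 and 12.18 in the invasive arrays (4.87, adjusted p = 0.000637). The fibrillar chains Col5a1 (4.79), Col1a2 (4.44) and Col3a1 (3.46), Col12a1 (4.40) and Col8a1 (4.35) kept the same order, with carcinoma in situ within or below the normal values. The basement membrane chain Col4a1 differed in course, reading 8.79 and 6.91, then 11.17 and 10.93, then 11.47 and 12.11 in the same order, and did not pass between the lesions (0.74, adjusted p = 0.635). Of 16 processing genes 10 rose and 0 fell (9 and 0 with the 4 arrays alone). They were led by the crosslinking oxidase Lox, from 5.85 and 5.52 to 10.32 and 10.49 (4.72). The prolyl hydroxylase P4ha2 (4.12), Pcolce (3.98) and the collagen chaperone Serpinh1 (3.73) came next. Of 18 matricellular and matrix glycoproteins 13 rose and 0 fell (10 and 0 with the 4 arrays alone). Ccn2, connective tissue growth factor, read 9.01 and 7.04 in the normal arrays, 8.52 and 8.45 in carcinoma in situ and 13.59 and 13.53 in the invasive arrays (5.54, 46.4-fold, adjusted p = 0.00321), and Ccn1, of the same family, read 6.71 and 6.25, then 6.37 and 6.42, then 11.16 and 11.64. Sparc (4.69), Vcan (4.62), Postn (4.50), Nid1 (3.84), Ccn3 (2.98) and Tnc (3.33) rose with them. Of 16 proteoglycan and elastic fibre genes 7 rose (6 with the 4 arrays alone), with the largest difference for Fbln2 (6.09). Bgn (3.92), Prelp (3.59), Aspn (2.63) and Fbln5 (2.37) followed.

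Markers of fibroblasts rose in part. Of 12 fibroblast markers 7 rose and 0 fell (4 and 0 with the 4 arrays alone), and 5 did not pass. Col1a1, Col1a2, Col3a1 and Col14a1 are among the 7 and also stand on the collagen list, and others such as Dcn on the proteoglycan list. The summed linear signal of the 12 includes these shared genes. It was 6080 and 4140 in the normal arrays, 1740 and 1690 in carcinoma in situ and 27300 and 49800 in the invasive arrays. Pdgfrb, a receptor of fibroblasts and mural cells, read 5.23 and 4.79 in the normal arrays and 10.15 and 11.41 in the invasive arrays (5.77). Decorin, Dcn, a fibroblast product, did not pass (0.94, adjusted p = 0.100). It read 11.79 and 11.001 in the normal arrays, 6.32 and 6.50 in carcinoma in situ and 12.08 and 12.59 in the invasive arrays. Stromal transcripts were thus present in the normal regions as well. The part of these cells in the matrix, protease and mesenchymal genes was not tested. Of 14 smooth muscle markers 3 rose and 2 fell (2 and 1 with the 4 arrays alone). Members ranged from -1.64 to 2.51, with a median of 0.08. The top of this range was Acta2, also a marker of activated fibroblasts, at 12.67 and 13.45 in the invasive arrays against 10.97 and 10.14. Other probe sets of Acta2 were dim and differed by 0.22 and 0.10.

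Markers of several immune and vascular cell types were higher in the invasive regions. Of 17 macrophage markers 14 rose and 0 fell (11 and 0 with the 4 arrays alone), and their summed signal was 3610 and 3140 in the normal arrays, 6760 and 6990 in carcinoma in situ and 19300 and 32200 in the invasive arrays. C1qa, a complement subunit made by macrophages, read 5.90 and 7.25 in the normal arrays and 10.77 and 11.95 in the invasive arrays (4.79, adjusted p = 0.00399), and the scavenger receptor Mrc1 (4.02) and the Csf1 receptor Csf1r (3.26) rose with it. Of 9 mast cell markers 8 rose and 0 fell (6 and 0 with the 4 arrays alone). Their summed signal was 332 and 370, then 538 and 597, then 4130 and 2790 in the same order. The tryptase Tpsab1 led them, from 5.24 and 5.30 to 10.91 and 10.36 (5.37). Cpa3 (3.77), Fcer1a (3.56), Cma1 (3.40) and Kit (3.005) rose with it. Tpsab1 was also higher than in carcinoma in situ (3.38, adjusted p = 0.00258).

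Endothelial markers all rose, 15 of 15 (11 with the 4 arrays alone), with a summed signal of 1050 and 1130 in the normal arrays, 3470 and 3200 in carcinoma in situ and 3790 and 4550 in the invasive arrays. Cdh5, the cadherin of vessels, read 5.36 and 4.01, then 7.73 and 7.72, then 8.24 and 8.18, and the fenestral protein Plvap 6.38 and 6.27, then 9.47 and 9.03, then 9.47 and 9.83. For both genes carcinoma in situ stood near invasive carcinoma. Of 11 neutrophil markers 3 rose, Clec4d (2.86), Fpr2 (1.71) and Csf3r (1.21), and the granule genes Mpo (0.01), Elane (-0.31) and Ngp (-0.14) stood at dim values in all arrays. Of 16 T and NK cell markers 2 rose (1 with the 4 arrays alone), Il7r (1.52) and Cd3g (1.28). That share, 12.5%, is close to the 12.6% over all genes. The summed signal of these markers was 1210 and 1360 in the normal arrays and 1240 and 1530 in the invasive arrays. Of 9 B and plasma cell markers 1 rose (0 with the 4 arrays alone), Jchain (3.69, adjusted p = 0.0244), and Ms4a1 of B cells was high in 1 normal array, with values of 4.96 and 9.22. The mesothelial and carcinoma antigen Msln rose from 7.76 and 7.90 to 11.40 and 11.82 (3.78, adjusted p = 0.000592), while the other mesothelial markers Wt1 (0.95) and Lrrn4 (-0.44) did not pass. Skeletal muscle markers showed 0 rises and 0 falls among 7. Of 6 pericyte markers 2 rose, Abcc9 (3.27) and Higd1b (1.43), and 1 fell (1 and 1 with the 4 arrays alone), Rgs5, which was bright in the normal arrays (13.36 and 13.37 against 10.98 and 10.97, -2.39). Of 5 adipocyte markers 1 fell (0 with the 4 arrays alone), Fabp4, from 13.79 and 12.49 to 11.14 and 11.28 (-1.93), while Adipoq (0.00), Cidec (-0.10), Lep (0.06) and Retn (0.11) did not pass. The part of these cell types in the chemokine, cytokine and interferon genes described next was not tested.

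**Figure D5:**
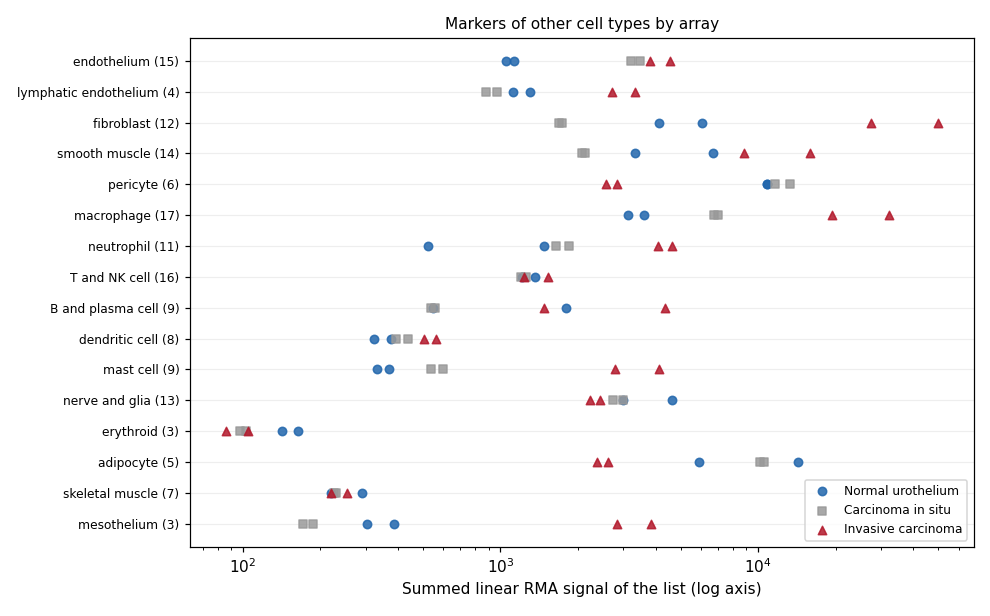
Summed linear RMA signal (horizontal, log axis) of the measured markers of each other cell type (number in parentheses), 2 points per group. Fibroblast, macrophage and mast cell sums are highest in the 2 invasive arrays, endothelial sums are raised in both lesions, and T and NK cell sums lie within a narrow range in all 6 arrays.

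Chemokines were among the most widely raised families. Of 27 measured, 21 rose and 1 fell, with a median of 2.13, and 13 rose with the 4 arrays alone. Cxcl3 read 3.11 and 2.80 in the normal arrays, 8.64 and 8.33 in carcinoma in situ and 10.74 and 10.46 in the invasive arrays (7.65 over a dim normal level, adjusted p = 0.000194). Cxcl5 (4.28 and 4.31 against 10.86 and 10.10) and Cxcl2 (4.54 and 4.47 against 9.38 and 8.68) rose likewise, and Ppbp (4.24) and Cxcl1 (3.26), of the same family, rose with them. These chemokines act on neutrophils through Cxcr2, which itself did not pass (0.21 ± 0.22). The monocyte chemokines Ccl8 (3.19) and Ccl9 (3.09) and the interferon-induced Cxcl10 (3.14) rose too. Cxcl15 was the exception, at 7.59 and 7.81 in the normal arrays, 9.42 and 9.62 in carcinoma in situ and 4.54 and 5.50 in the invasive arrays (-2.68, adjusted p = 0.00485).

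Cytokines and epithelial defence genes rose in part. Of 30 cytokine genes 15 rose and 1 fell (Tnfaip2, -1.54), against 9 and 1 with the 4 arrays alone. The alarmin Il33 read 7.01 and 6.53 in the normal arrays and 12.28 and 11.51 in the invasive arrays (5.13, adjusted p = 0.000690), with 12.21 and 12.30 in carcinoma in situ. Tnfaip3 (3.05), Socs3 (2.95), Il6 (2.73), Lif (2.55), Csf1 (2.50), Tnfaip6 (2.48) and Il1b (2.09) rose with it, and Tnf did not pass (0.93 ± 0.27). Of 16 antimicrobial and acute phase genes 6 rose (4 with the 4 arrays alone). These were, beside Cp, lactoferrin, Ltf (5.77), Lcn2 (5.32), Pglyrp1 (3.41), Reg3g (2.74) and Hp (2.04). Ltf read 5.48 and 5.97 in the normal arrays, 7.32 and 7.58 in carcinoma in situ and 11.74 and 11.26 in the invasive arrays (4.05 between the lesions, adjusted p = 0.00196). S100a8, a subunit of calprotectin, read 10.72 and 10.99 in the invasive arrays, but the normal arrays were far apart, at 8.76 and 4.66, and it did not pass (adjusted p = 0.0698). In the prostaglandin and leukotriene list 7 of 17 rose and 1 fell (4 and 1 with the 4 arrays alone). Ptgs2, cyclooxygenase 2, read 5.07 and 3.62 in the normal arrays and 10.85 and 10.28 in the invasive arrays (74.4-fold, adjusted p = 0.00131), the prostaglandin E receptors Ptger3 (4.17) and Ptger2 (4.003), the lipoxygenase Alox15 (2.04) and the synthase Ptges (1.54) rose, and Hpgd, which breaks prostaglandins down, fell from 10.08 and 10.17 to 7.44 and 6.76 (-3.02).

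Interferon response genes rose nearly throughout. Of 22 measured, 18 rose and 0 fell, with a median of 2.55, and 17 rose with the 4 arrays alone. Ifit1, which binds foreign RNA, read 4.24 and 4.94 in the normal arrays, 6.53 and 6.03 in carcinoma in situ and 9.98 and 10.56 in the invasive arrays (5.68, 51.2-fold, adjusted p = 0.000690). Xaf1 (5.63), the GTPase Iigp1 (4.40), Ifit3 (4.06), Rsad2 (3.48), Oasl2 (3.39), Bst2 (3.26) and Oas1a (3.19) rose with it, while Mx2 (0.59), Stat2 (0.41), Usp18 (0.54) and the sensor Ddx58 (0.15) did not pass. Of 12 genes of antigen presentation on class I 4 rose (3 with the 4 arrays alone). These were the ubiquitin-like Ubd (5.92), the immunoproteasome subunits Psmb10 (2.40) and Psmb8 (2.14) and the chaperone Tapbp (0.999). H2-K1 (0.22 ± 0.24) and B2m (-0.05 ± 0.34) did not pass. Of 13 checkpoint and suppression genes 5 rose (3 with the 4 arrays alone), led by arginase, Arg1 (4.67), and Nt5e (3.61), and Cd274 did not pass (0.87 ± 0.33, adjusted p = 0.130).

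Some imprinted genes fell, and chromatin genes passed at about the share of all genes. Of 13 imprinted genes 5 fell and 1 rose (2 and 0 with the 4 arrays alone). The long noncoding RNA Meg3 read 12.45 and 13.55 in the normal arrays, 7.31 and 7.58 in carcinoma in situ and 7.67 and 9.91 in the invasive arrays (-4.21, adjusted p = 0.0158), and its neighbours in the same imprinted locus, Rian (-2.88) and Mirg (-1.77), fell with it. Plagl1 (-2.27) and Peg3 (-1.11) fell too, and Grb10 rose (2.06). Of 18 DNA methylation and Polycomb genes 2 rose and 2 fell (1 and 0 with the 4 arrays alone), with Uhrf1, which is made in S phase, rising from 6.60 and 6.39 to 8.98 and 8.85 (2.42) and the methylcytosine oxidase Tet2 falling (-1.10). Of 21 genes of ER stress and secretory folding 5 rose, led by Chac1 (2.27) and Ddit3 (1.81) (3 and 0 with the 4 arrays alone), and of 25 proteasome subunits 8 rose, none by more than 1.40 (1 with the 4 arrays alone).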

How the data were processed

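Laser-captured bladder regions were profiled on 6 Affymetrix arrays, 2 each of normal urothelium, carcinoma in situ and invasive carcinoma, grouped by their titles. The deposited values are log2 signals from RMA, made by the authors with Partek per the submitters' processing notes, without versions, from 100 ng RNA per sample per the labels. RMA makes the arrays share one distribution, so differences are relative to the other genes. A deposited table of linear fold values between group means matched these signals for 45096 of 45101 probe sets within 0.006 and was not used further. The genome build is not given in the sources used here.

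Of the probe sets 34958 had 1 gene symbol in the platform annotation, 932 several and 9211 none, and 34741 named, non-control probe sets matched RefSeq genes. The brightest probe set per gene left 18193 genes (9010 had a choice). limma 3.58.1 in R 4.3.3 fitted 3 group means to the 6 arrays (3 residual and 2.69 prior degrees of freedom), with Benjamini-Hochberg adjustment over all genes and a threshold of 0.05. At an unadjusted p under that threshold 5977 genes differed. The steps were tested on simulated data. The number of arrays limits the precision.

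The members and the 71 gene lists were chosen with earlier results of these data known. The text names the 15 largest rises and falls with non-overlapping arrays. Per list it names up to 8 members that passed and 4 that did not, or all in short lists. Members were taken mainly from the largest change down, but this order was not kept throughout. Named outside this rule, after their values were seen, were the genes of the chromosome 9 run, the Yap1 targets, Ect2, Espl1, Mmp14, Col3a1, Col18a1, Axin2, Cxcl15, Tnfaip2, Tyms, Bmp2, Igfbp2, Fgf1, Tyro3, Fgfr3 and Mmp1b. Alternatives covered arrays left out, a replicate block, array weights, scaling, probe set choice, a filter on dim genes, moderation and a minimum change. Promoter letters were counted in RefSeq windows of GRCm38.p6.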

Additional observations from a re-analysis of the deposited data

How the results depend on the processing

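Only 2 arrays stood behind each group, so the count of genes that differed from normal, 3652, moved widely with the arrays used. It was 1832 with only the 4 arrays compared and with the in situ arrays averaged to 1 sample, 8165 without normal array 2 and invasive array 1, and 2222 of the 9096 genes with a mean above the median. Leaving out 1 array gave 1637 to 5699, where a group with 1 array left was assumed to vary like the others. Counts between 2805 and 4633 came from the replicate block (3315) and the other settings. The 521 changed list members became 354 with the 4 arrays or the averaged in situ pair, 805 without the 2 arrays named, 345 among the brighter genes and 329 to 652 with 1 array left out. The 999 genes that differed from carcinoma in situ became 55 with that pair averaged, 5897 without the 2 arrays, 420 among the brighter genes, 2709 with array quality weights and 50 to 2493 with 1 array left out. Whether the array numbers mark pairs cannot be told from 2 arrays per group. Deviations of normal and invasive array 1 correlated at 0.37, and those of in situ array 1 with these at -0.39 and -0.34. A block crossed in carcinoma in situ, added after seeing the data, gave 4633.

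Of 421 genes named, 348 passed, and 226 of these passed under every alternative that tested them. Those that lost the call under at least 1 alternative were Acadl, Acta2, Ajuba, Aldh1a2, Alox15, Atr, Axin2, Bak1, Bmp2, Bnip3, Bst2, Calml3, Car9, Ccn3, Ccnd3, Ccne2, Cd24a, Cd3g, Cdkn1a, Cdkn2b, Cflar, Cldn23, Col12a1, Col18a1, Col4a1, Cpt1a, Csf1r, Csf3r, Ctsk, Ctsl, Cyp1a1, Ddit3, Ddit4, Dkc1, Dsg2, Dst, Dusp5, E2f8, Egf, Egln3, Ehhadh, Elovl1, Elovl6, Epgn, Erbb3, Errfi1, Espl1, Esrp2, Evpl, Fabp4, Fancd2, Fas, Fbln5, Fgfr3, Foxa2, Gas1, Gfra3, Grb10, Grhl1, Grhl3, Gstt3, H2-Ab1, H2-DMa, Hbegf, Higd1b, Hp, Hsd17b7, Id3, Idh2, Ier3, Jag2, Jchain, Jund, Kdm5d, Kitl, Klf2, Krt4, Lats2, Lgr5, Lss, Marveld2, Marveld3, Mcm3, Meg3, Mfng, Ncl, Notch1, Oas1a, Pdpn, Peg3, Pfkl, Phlda3, Plk2, Psmc5, Rab27b, Rad54l, Rdh11, Reg3g, Rgs5, Rhoc, Rian, Rpl8, Rptn, Scnn1b, Sdhc, Slc14a1, Snx31, Spint1, Spred1, Spred3, Spry2, Srebf1, Stra6, Tapbp, Tet2, Tgfb2, Timp3, Tnc, Tnfaip2, Tyms, Upk3b and Zeb2. The direction turned for Tpx2, at 0.96 with the mean of its probe sets and 2.15 with the probe set of highest variance, for Trp63, at -2.10 with that probe set, and for Dst, at 0.23 and 2.55. Without normal array 2 and invasive array 1 it turned for Epcam (-0.80), Krt15 (-1.02) and Krt19 (-0.70). The cause was not tested. Dim probe sets near the array background understate changes. Some called genes also had another probe set, readable but less bright, that did not move with the one used. Its difference was 0.06 for Ncl, -0.06 for Sdhc, -0.12 for Cpt1a, -0.16 for Ccnd3, -0.07 for Csf1 and 0.02 for Nt5e. The means of these probe sets over the 6 arrays lay between 6.70 (Nt5e) and 8.78 (Sdhc). Among the largest rises and falls, another probe set of Htr4 differed by -0.05. Those of Hs6st2 ranged from 0.09 to 2.71 and those of Snhg14 from -4.03 to -0.29.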

Other observations

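Genes known to answer to Yap1 and its relative Taz were listed after the rise of Yap1 had been seen, so their values carry no test as a group. Of 20 measured, 12 were higher in invasive carcinoma than in normal urothelium and 0 lower, with a median of 1.91 beside 0.00 for all genes. Over all genes 12.6% were higher and 7.46% lower. Ankrd1 read 4.21 and 4.29 in the normal arrays, 5.15 and 5.14 in carcinoma in situ and 10.77 and 11.16 in the invasive arrays (105-fold over normal, adjusted p = 0.000194). Lats2 (1.83), a kinase that restrains Yap1, Ajuba (2.32), Nuak2 (1.45) and Tgfb2 (1.999) rose beside Ccn1, Ccn2, Axl and Nt5e. Of the 12, Ankrd1, Ccn1, Ccn2, Axl, Lats2 and Tgfb2 were also higher than in carcinoma in situ. The rest of the 12 did not pass between the lesions, among them Ajuba (-0.28), Nuak2 (0.0003) and Nt5e (0.59). Whether the targets follow Yap1 was not tested. Igfbp3 read 9.35 and 5.005 in the normal arrays against 12.14 and 11.83 in the invasive arrays and did not pass (adjusted p = 0.0539), and its normal arrays were far apart. Myof (-0.93) and Ptpn14 (0.03) did not pass.

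Other, mostly short lists gave calls in part, to be read against 12.6% higher and 7.46% lower over all genes. Of 6 genes of hyaluronan and its receptors 2 rose, the synthase Has2 (2.81) and Hmmr (1.59). Of 6 class II genes 2 rose (1 with the 4 arrays alone), H2-Ab1 (3.12) and H2-DMa (2.11), and of 8 dendritic cell markers 1 rose, Itgax (1.73), which macrophages share. Of 13 apoptosis genes 4 rose (2 with the 4 arrays alone), and beside Birc2 and Birc3 these were Bak1 (2.12) and Cflar (1.45). Of 13 genes of ribosome biogenesis 3 rose (1 with the 4 arrays alone), Fbl (1.36), Ncl (1.24) and Dkc1 (1.08). Another probe set of Ncl differed by only 0.06. Among 11 citric acid cycle genes 1 rose, Idh2 (1.77). Of 13 nerve and glia markers 4 rose, led by Ncam1 (2.82), and 2 fell (2 and 2 with the 4 arrays alone), Uchl1 from 11.77 and 10.81 to 6.93 and 8.56 (-3.54) and Gfra3 (-1.18). Of 4 lymphatic markers 2 rose, Flt4 (1.91), the receptor of Vegfc, and Pdpn (1.27).

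Of 9 genes of hemidesmosomes and laminins 1 fell, Dst (-1.31, not called with the 4 arrays alone), which encodes dystonins of several lengths, and 0 rose. Its probe sets disagreed: the probe set with the highest variance differed by 2.55 in the other direction. The remaining laminin and integrin genes on the list did not pass.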
